A study of Mus musculus with 4 samples.

Results

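Adult neurogenesis and progenitor genes were followed in the dentate gyrus of the mouse hippocampus. The 9 genes were Sox2, Nes, Id2, Id3, Sox4, Sox11, Dcx, Marcksl1 and Dpysl3. They were listed for their known expression in progenitors and immature neurons of the subgranular zone, with earlier results of these data known. All 9 of these genes, of 8251 on the array named by a probe set of their own, were measured, by 12 of the 12422 non-control probe sets. Sox4, Sox11 and Nes had 2 probe sets each. RNA came from young male C57BL/6J mice that were handled and received no other treatment, with 1 array at each of 1, 2, 4 and 6 h. All 4 titles also carry the word 2nd, which the labels do not explain. The hour counts from the last shock given to experimental mice of the same study, which were not analysed here. The number of mice behind each RNA, and any pooling of mice, are not in the labels, so any SD below runs over 4 arrays taken at different hours (n = 4) and may be partly technical.

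In the adult dentate gyrus, stem cells along the inner edge of the granule cell layer divide slowly and give rise to proliferating progenitors, then to neuroblasts and immature granule neurons. Sox2 and nestin mark the early stages. Id proteins bind basic helix-loop-helix transcription factors and keep them from DNA, which holds back differentiation. SoxC transcription factors and the cytoskeletal proteins that reshape young neurons mark the later stages. These cells are a small part of the tissue, and several of the genes are also expressed in astrocytes, blood vessels or mature neurons. In bulk RNA, fewer cells of a type and less RNA per cell cannot be told apart.

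The 1 h array stood apart on the Gapdh control of RNA quality, and less so on the beta-actin one. Its 3' to 5' intensity ratio of the Gapdh control transcript was 4.88, against 1.13 to 1.33 at 2, 4 and 6 h, and its beta-actin ratio was 2.51 against 1.83 to 2.20. Granule cell markers were measured in the tissue, with 6 of 7 probe sets bright enough to be tested. Calb1, the calcium buffer of mature granule cells, had an intensity of 2196 ± 178 (SD, n = 4). Prox1, their defining transcription factor, read 71.6 at 1 h and 278, 155 and 232 later.

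None of the members could be shown to change over the hours. Of the 12 probe sets, 9 of 8 genes were bright enough for the test, which required a mean log2 intensity of at least 6.66, an intensity of about 101. In limma's straight-line fit of log2 values against time, 0 of these 9 passed a Benjamini-Hochberg adjusted p of 0.05, where 1 of all 7453 tested probe sets passed (0.0134%). Adjusted p-values of the members ran from 0.874 to 0.996. At an unadjusted p under 0.05 in limma there was 1 member, Marcksl1, against 4.40% of all tested probe sets. No tested member lay 2-fold or more from the mean of the other 3 arrays at any hour, and 11.5% of all tested probe sets did so. The ratio of the highest to the lowest array had a median of 1.50 over the tested members and 1.46 over all tested probe sets. With 1 array per hour, a difference between hours has no replicate check, and a p that misses the threshold does not show that a level was constant.

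**Figure D1:**
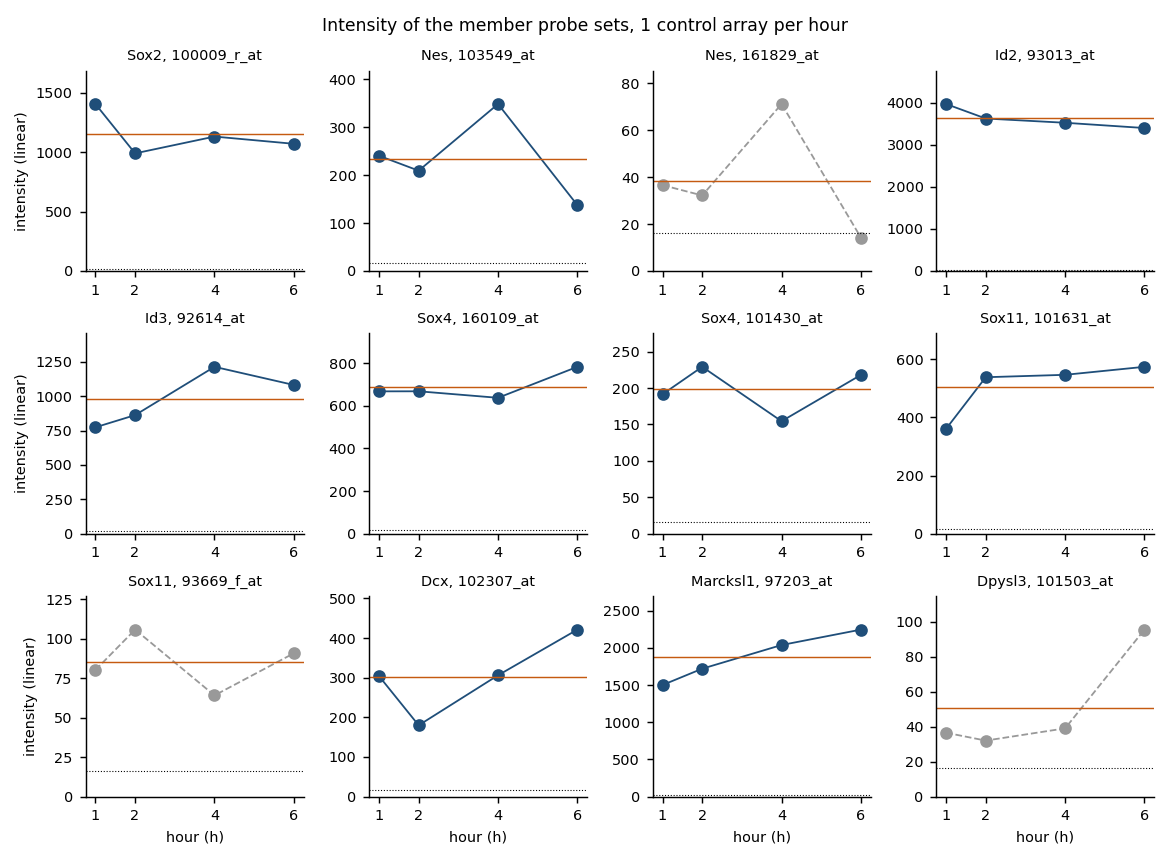
Intensity (linear scale, from 0) of the 12 member probe sets against the hour, with 1 control array per point. The orange line is the mean of the 4 arrays, the dotted line the floor of 16.4, and grey dashed panels are probe sets too dim for the test; Marcksl1 reads higher at each later hour and Id2 lower.

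The promoters show how the members differ in the sequence around their starts, a property the gene list did not use. RefSeq windows on GRCm38.p6, from 250 bases before the start to 50 after, were used for 8 of the 9 genes. Dpysl3 was left out. The GC box GGGCGG, searched on both strands, was found in 6 of these 8 and in 35.7% of all 32841 windows of the same length. The TATA box TATAAA was found in 1 of 8, that of Dcx, and in 13.6% of all windows. CCAAT was found in 6 of 8 and in 37.4% of all windows, and the E-box CANNTG in 5 of 8 and 72.3%. Matches of different motifs were allowed to overlap, and those of 1 motif too. GC content was 43.0% for Dcx with 3 CpG dinucleotides, and 52.0% to 66.3% with 12 to 27 CpG dinucleotides for the other genes, where the median of all windows was 52.7% and 7. Shown are Dcx and Sox11, members of the neuroblast stage with unlike promoters, and Id2 and Id3, 2 members of 1 family whose values differed in order over the arrays. Dcx lies at chrX:143933170-143933469 and Sox11 at chr12:27342669-27342968, Id2 at chr12:25096043-25096342 (these 3 on the minus strand) and Id3 at chr4:136143572-136143871 (plus strand). Each is written 5' to 3' on the gene's strand, and capitals mark GGGCGG or its complement CCGCCC and TATAAA or its complement.
Dcx: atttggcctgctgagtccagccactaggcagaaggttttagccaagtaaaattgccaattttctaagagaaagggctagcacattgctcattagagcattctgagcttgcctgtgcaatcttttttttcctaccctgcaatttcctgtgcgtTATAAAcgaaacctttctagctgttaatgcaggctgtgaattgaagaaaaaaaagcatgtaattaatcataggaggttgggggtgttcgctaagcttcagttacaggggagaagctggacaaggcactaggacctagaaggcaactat
Sox11: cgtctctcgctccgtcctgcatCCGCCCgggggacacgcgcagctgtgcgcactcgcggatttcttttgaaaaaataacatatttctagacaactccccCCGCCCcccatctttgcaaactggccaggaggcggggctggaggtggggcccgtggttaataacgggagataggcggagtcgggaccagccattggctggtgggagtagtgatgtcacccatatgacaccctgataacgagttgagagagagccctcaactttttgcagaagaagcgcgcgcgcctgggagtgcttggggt
Id2: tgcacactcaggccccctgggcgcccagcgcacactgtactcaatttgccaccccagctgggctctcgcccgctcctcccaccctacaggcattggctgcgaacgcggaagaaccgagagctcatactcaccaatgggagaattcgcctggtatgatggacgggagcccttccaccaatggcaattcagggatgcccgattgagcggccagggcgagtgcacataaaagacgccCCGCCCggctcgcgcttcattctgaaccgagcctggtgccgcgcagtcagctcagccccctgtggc
Id3: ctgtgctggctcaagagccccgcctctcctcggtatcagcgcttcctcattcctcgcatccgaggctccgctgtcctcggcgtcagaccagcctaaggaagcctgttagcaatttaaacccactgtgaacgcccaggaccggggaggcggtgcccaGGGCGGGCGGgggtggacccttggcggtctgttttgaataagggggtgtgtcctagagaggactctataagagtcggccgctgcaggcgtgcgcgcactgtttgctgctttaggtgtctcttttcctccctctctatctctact
Dcx has 2 annotated starts in the table, and the window of the second also held TATAAA and no GC box. The second GC box of Id3 overlaps the first, so they appear as 1 run of capitals. A match was counted anywhere in the window, whatever its distance from the start, so TATAAA here need not lie where a working TATA box would. It is a run of letters and does not show that a factor binds there.

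Sox2, the transcription factor that maintains neural stem cells, had its highest value at 1 h. It read 1406, 990.5, 1132 and 1071 at 1, 2, 4 and 6 h, a mean of 1149.9 ± 180.4 (SD, n = 4). The 3 later arrays lay close together, and the 1 h array was 1.32 times their geometric mean. The slope was -0.05 ± 0.05 (SE) log2 units per hour (limma adjusted p = 0.918), and 0.03 without the 1 h array, so its direction rested on the array with the Gapdh ratio of 4.88. The identifier of this probe set ends in _r_at, a class with relaxed rules for choosing probes, which makes the value less certain. Sox2 is also expressed in astrocytes, and the summed intensity of the 13 tested astrocyte probe sets was 56576 at 1 h and 52650 to 53867 later. The 2 probe sets of Cpe, which neurons express as well, set that order. Cpe was part of the list as chosen. The other 11 summed to 24004 at 1 h and to 26698, 26201 and 25396 at 2, 4 and 6 h. That sum was lowest at 1 h, but the probe sets in it differed. Aldoc was lowest at 1 h (10364), while a Gja1 probe set (6466) and the brighter Gfap one (2344) were highest there. The part of astrocyte RNA in the Sox2 values was not tested.

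Nes encodes nestin, an intermediate filament protein of neural progenitors that endothelial cells can also express. Its brighter probe set read 241, 209, 349 and 137 at 1, 2, 4 and 6 h, a mean of 234 ± 87.8 (SD, n = 4). The dimmer one, too dim for the test, read 36.6, 32.2, 71.2 and 14.2, with the last value under the floor of 16.4. Both probe sets put the arrays in the same order, highest at 4 h and lowest at 6 h. On the brighter probe set the 4 h array was 1.83 times and the 6 h array 0.529 times the geometric mean of the others. The highest array was 2.54 times the lowest, the widest range among the 9 tested members. The slope was -0.11 ± 0.11 log2 units per hour (limma adjusted p = 0.913), and without the 6 h array it was 0.21. The 8 tested endothelial and mural probe sets summed to 1437 at 6 h and to 1945 to 2059 earlier. Their sum too was lowest at 6 h but not highest at 4 h. Slopes were negative in 6 of the 8 and positive in 2, and Vwf was highest at 6 h (237, 251, 248 and 268). The part of endothelial and mural RNA in the Nes values was not tested.

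Id2, an inhibitor of basic helix-loop-helix factors, was the steadiest member. Its intensity was 3975, 3629.7, 3528.5 and 3403 at 1, 2, 4 and 6 h, a mean of 3634 ± 245 (SD, n = 4). Each later array was lower than the one before, as in 5.98% of all tested probe sets, and the highest was only 1.17 times the lowest. Its spread on the log2 scale was 0.10, larger than in 9.46% of all tested probe sets and in 24.2% of the 500 nearest to it in intensity. The slope was -0.04 ± 0.04 log2 units per hour (95% interval -0.12 to 0.05, limma adjusted p = 0.900).

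Id3, a related inhibitor and, like Id1 and Id2, a known target of bone morphogenetic protein signals, had the later arrays above the earlier ones. The values were 774 and 862 at 1 and 2 h, then 1213 and 1081 at 4 and 6 h, with a mean of 983 ± 201 (SD, n = 4). The slope was 0.11 ± 0.05 log2 units per hour (95% interval -0.01 to 0.23, limma adjusted p = 0.874). It was positive without any 1 of the arrays, from 0.08 to 0.22. The other Id genes, which were not in the list, differed from each other. Id1 read 294, 209, 388 and 417, and Id4 1376.5, 1483, 1397 and 1446.5. Id1 and Id3 were thus both higher at 4 and 6 h than at 1 and 2 h, while Id2 was lower and Id4 varied little. Whether the slopes of the Id genes differ was not tested.

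Sox4 and Sox11 are SoxC transcription factors that switch on neuronal genes in newborn neurons. The brighter Sox4 probe set read 668, 668, 637.5 and 783 at 1, 2, 4 and 6 h, a mean of 689 ± 64.2 (SD, n = 4). The second read 191.5, 229, 154.5 and 218, a mean of 198 ± 33.2. Both were lowest at 4 h, and they differed in the highest array, 6 h on one and 2 h on the other. Their slopes were 0.04 ± 0.05 and -0.003 ± 0.089 log2 units per hour (limma adjusted p = 0.926 and 0.996). The sign of the second turned when array medians were made equal (0.02), and without the 6 h array the slopes were -0.02 and -0.13.

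Sox11 was low at 1 h only. It read 360.5 at 1 h and 538, 546 and 574 at 2, 4 and 6 h, a mean of 504.5 ± 97.2 (SD, n = 4). The 3 later arrays spanned a narrow range, and the 1 h array was 0.653 times their geometric mean. The slope was 0.11 ± 0.06 log2 units per hour (limma adjusted p = 0.874) and 0.02 without the 1 h array. A second probe set, too dim for the test and of the _f_at class that can share sequence with related genes, read 80.2, 106, 64.1 and 90.8. It was lowest at 4 h and not at 1 h, so the low value at 1 h was on the brighter probe set alone. The Gapdh ratio of 4.88 belongs to that array, and its part in the Sox11 value was not tested.

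Dcx encodes doublecortin, the microtubule-binding protein used to count neuroblasts and immature neurons. The arrays of 1, 2, 4 and 6 h gave 304, 179.8, 306 and 421, a mean of 303 ± 98.6 (SD, n = 4). The 1 h and 4 h values were nearly equal, the 2 h array was 0.529 times and the 6 h array 1.65 times the geometric mean of the others. The highest array was 2.34 times the lowest, and the spread was larger than in 85.8% of all tested probe sets and in 89.6% of the 500 nearest in intensity. The slope was 0.15 ± 0.09 log2 units per hour, the largest of the 9 (95% interval -0.07 to 0.37, limma adjusted p = 0.874). It stayed positive when any 1 array was left out, from 0.06 to 0.31.

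Marcksl1, a protein kinase C substrate that links actin to the membrane and is high in growing neurons, had a higher value at each later hour. It read 1499.8, 1719, 2038 and 2245 at 1, 2, 4 and 6 h, a mean of 1875.5 ± 331 (SD, n = 4). Such an order was found in 2 of the 9 tested members, Sox11 and Marcksl1, and in 4.44% of all tested probe sets. The slope was 0.11 ± 0.04 log2 units per hour (95% interval 0.02 to 0.21, limma adjusted p = 0.874), and 0.10 to 0.14 without any 1 of the arrays. Ttr, a choroid plexus gene and the one probe set past the threshold in these arrays, read 225, 444, 1258 and 3009 in the same order. The other tested choroid plexus genes did not rise at every hour. Folr1 read 65.5, 63.1, 117.6 and 266.9, and Kl 279.8, 109.4, 194.5 and 190.1. The part of choroid plexus RNA in the Marcksl1 values was not tested. The related gene Marcks read 1728, 1412.5, 1845.5 and 1807, with no such order.

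Dpysl3, a growth cone protein of the collapsin response mediator family, was too dim for the test. It read 36.5, 32.0, 39.0 and 95.5 at 1, 2, 4 and 6 h, a mean of 50.8 ± 30.0 (SD, n = 4), against a floor of 16.4. The 6 h array was 2.67 times the geometric mean of the others. With no filter on dim probe sets, Dpysl3 and the dimmer probe set of Nes were the 2 members at least 2-fold from the other arrays, while 29.8% of all 12422 probe sets then were. Of its relatives, Crmp1 read 2242.5, 3281, 2725.5 and 3214, Dpysl4 475, 402, 537 and 654, and Dpysl2 449, 371, 296 and 325. Dpysl4 was highest at 6 h like Dpysl3, and Dpysl2 was highest at 1 h.

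**Figure D2:**
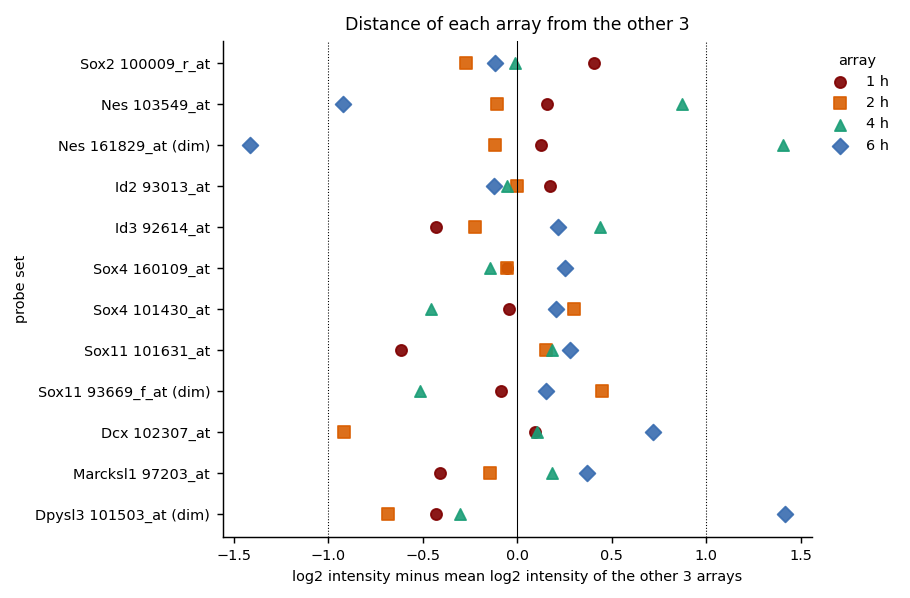
Distance of each array from the other 3, as log2 intensity minus their mean log2 intensity, for the 12 member probe sets (dim: not tested). Dotted lines mark 2-fold, and the points outside them are 2 on the dimmer Nes probe set and 1 on Dpysl3.

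The members did not share 1 pattern over the arrays. Slopes were above 0 for 5 of the 9 tested probe sets and below 0 for 4, where 46.5% of all tested probe sets were above. At 1 h, 5 were lower than the mean of the other 3 arrays and 4 higher, where 45.4% of all tested probe sets were lower. At 6 h, 6 were higher, where 49.2% of all were. The median log2 deviation from each probe set's own mean was -0.03, -0.08, 0.08 and 0.16 at 1, 2, 4 and 6 h for the members, and 0.04, 0.01, 0.01 and -0.003 for all. The median slope was 0.04 log2 units per hour for the members and -0.01 for all.

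**Figure D3:**
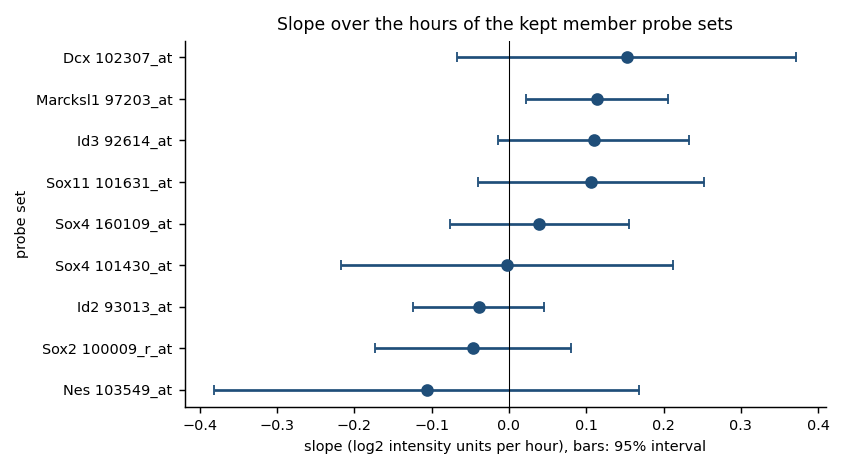
Slope of log2 intensity per hour for the 9 tested member probe sets, with 95% intervals from the moderated variances of the fit to all 7453 probe sets. Only the interval of Marcksl1, 0.02 to 0.21, lies above 0, before any adjustment for the number of probe sets.

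The nearest probe sets to the median pattern of the members, by Euclidean distance between the 4 log2 deviations, were those of Cipc (603.9, 575, 645 and 691 at 1, 2, 4 and 6 h), 1810030O07Rik and Fn1, at distances of 0.065 to 0.066 among 6725 candidates. For single members, Gabbr1, a GABA-B receptor subunit, was nearest to Sox11, at 3092.5, 4577, 4671 and 4743 (distance 0.042). Ak3 was nearest to Dcx, at 282, 165, 312 and 385 (distance 0.129), and Sema7a to the brighter Nes probe set, at 194, 178, 268 and 110.5 (distance 0.102). Cnot8 was nearest to Marcksl1 (0.041), Mrpl16 to Id3 (0.014), Cdkl2 to Id2 (0.027), Cox6a1 to Sox2 (0.020) and Armc1 to the brighter Sox4 probe set (0.028). With 4 arrays and 6725 candidates, a close neighbour is found for most patterns.

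The 5 other lists cover stages of the lineage, niche signals and the protein families of the members. Each had 0 probe sets past the adjusted threshold in limma in either direction, where 1 of all 7453 tested passed (0.0134%). With so small a share, a list of this size says little by holding 0. Stem cell and radial glia genes had 18 tested probe sets, 10 with positive slopes and 1 at an unadjusted p under 0.05 in limma. That was Lpar1, a lysophosphatidic acid receptor of dentate progenitors that oligodendrocytes also express, at 448, 576.5, 309 and 201. Hopx, a marker of quiescent stem cells that astrocytes share, read 4559.8 at 1 h and 3592, 3995 and 3640.5 later. The filament gene Gfap read 2344, 2139.6, 2261 and 1941 on its brighter probe set and 349, 374, 374 and 353 on the other, and the filament gene Vim 187, 107, 132 and 66.2. Aldoc, a glycolytic enzyme of astrocytes and stem cells, read 10364, 12713, 11769 and 11008. Hopx, Vim and the brighter Gfap probe set were highest at 1 h like Sox2, while Aldoc and the other Gfap probe set were lowest there.

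Intermediate progenitor and proliferation genes had 17 tested probe sets, 9 with positive slopes and 0 at an unadjusted p under 0.05 in limma. Cdk4, a kinase of the G1 phase, read 1295, 1547, 1414 and 1532 on its brighter probe set and 296, 221, 193 and 210.0 on the other, which put 1 h lowest and highest. Pcna, the replication clamp, read 764, 842, 805 and 858. The helicase subunits Mcm4 (45.4, 191, 173 and 142) and Mcm3 (136, 119, 113.5 and 59.5) had the largest slopes, with opposite signs. A second probe set of Mcm3 ran the other way, at 140.4, 166, 199 and 225.

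Immature neuron genes had 24 tested probe sets, 15 with positive slopes, a median slope of 0.04 log2 units per hour and 3 at an unadjusted p under 0.05 in limma, all positive, beside 46.5% and 4.40% of all tested probe sets. Granule cell markers leaned the same way, with positive slopes in 6 of 6 tested probe sets and a median of 0.07. At an unadjusted p under 0.05 in limma there were 0 of them. Their summed intensity was 5347, 6109, 6144.5 and 6795 at 1, 2, 4 and 6 h, and its part in the immature neuron values was not tested. Of these markers, Prox1 (71.6) and Neurod2 (1193) were lowest at 1 h, while 1 Tdo2 probe set was lowest at 4 h (758). The 3 immature neuron probe sets at an unadjusted p under 0.05 in limma were those of Gap43, Stmn1 and Calb2. Gap43 and Stmn1 are named only for these values. Gap43, a growth cone protein, read 1367, 1483, 1782 and 2043 at 1, 2, 4 and 6 h. Stmn1, which destabilises microtubules, read 2665, 4026, 4864.5 and 4956 on its tested probe set, and Calb2 (calretinin) 662.5, 1265, 1229 and 1426.5. Calb2 was thus low mainly at 1 h. So was Nnat, which had the largest slope of the list, at 713, 2627, 2062 and 2477. The part of the Gapdh ratio of 4.88 at 1 h in these values was not tested. Gap43 and Stmn1 were higher at each later hour, as Marcksl1 was. The brightest probe sets of the list did not share that order: Basp1 read 29216, 21556, 26378 and 24378, and Tubb3 6613, 8852, 8048 and 9034 on one probe set and 1999, 1591, 1988 and 2032 on another.

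Niche signals had 28 tested probe sets, 13 with positive slopes and 0 at an unadjusted p under 0.05 in limma. Bdnf, a neurotrophin, read 4481, 2996, 3760.5 and 3559.6, and Ctnnb1, the beta-catenin of Wnt signalling, 6966, 5854, 5808 and 5612. Both were highest at 1 h. The protein families of the members had 23 tested probe sets, 9 with positive slopes and 1, that of Sox15, at an unadjusted p under 0.05 in limma. Sox15 (189, 182, 159.5 and 60.9) and Sox7 (211, 232, 101 and 110.4) had the largest slopes in size. At least 1 array lay 2-fold or more from the others in 3 of 18 stem cell, 3 of 17 proliferation, 1 of 24 immature neuron, 5 of 28 niche and 2 of 23 family probe sets, beside 11.5% of all.

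**Figure D4:**
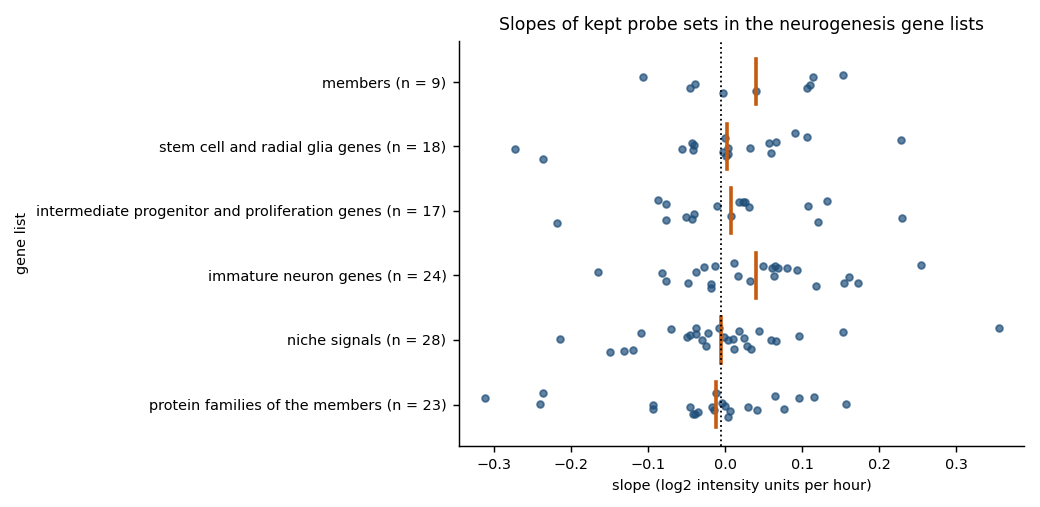
Slopes (log2 intensity units per hour) of tested probe sets in the members and the 5 other lists, 1 point per probe set, with the list median in orange and the median of all tested probe sets (-0.01) dotted. Medians of the members and of immature neuron genes were both 0.04, and points of every list lie on both sides of 0.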

How the data were processed

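Single-channel arrays of 4 dentate gyrus samples were used. The authors deposited intensity values on a linear scale, and the software and scaling are not given in the sources used here. The trimmed mean was 500.3 in every array, so a difference in total RNA does not show. Genes were named from the array annotation; the 66 control probe sets were left out of tests. Values under 16.4, the 10th percentile, were raised to it before taking log2. A probe set was tested when its mean log2 intensity reached the 40th percentile (6.66), which left 7453. The slope on the hour was fitted with limma 3.58.1 in R 4.3.3 (eBayes with a variance trend, 2 residual degrees of freedom). The test was two-sided, with Benjamini-Hochberg adjustment over all tested probe sets. The code was also run on simulated data with equal spread for every probe set. That run does not measure power or error rates in these arrays. Precision is limited by the number of arrays. The members and lists were chosen with earlier results of these data known. The rule for named genes took all members, the 3 brightest probe sets and the 2 of largest slope of each other list, some of which are given, and the probe sets nearest in pattern. Other relatives of the members, Gap43, Stmn1, Hes5, Bmpr2 and Cxcl12 were chosen with their values seen. Scaling, floor, filter, variance prior, hour scale and each array were varied.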

Additional observations from a re-analysis of the deposited data

Results flagged for a closer look

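Sox11 on its brighter probe set read 360.5 at 1 h, far below the 538 to 574 of the other 3 arrays, and by Dixon's criterion for 4 samples this array lay apart from the rest on the log2 scale. The gap was 0.861 of the range. On that scale 1 of the 12 member probe sets met the criterion. On the linear scale 2 did, Sox11 (0.832) and Dpysl3 (0.890), whose value of 95.5 at 6 h stood above 32.0 to 39.0 in the other arrays. Chance gives about 1 such group in 20, and 8.63% of all tested probe sets met the criterion on the log2 scale. That share covers tested probe sets alone, which are 9 of the 12 here and leave out Dpysl3. No share over all probe sets was taken on the linear scale, so the 2 found there have nothing to be read against. The 1 h array also had the Gapdh 3' to 5' ratio of 4.88, whose part in the value was not tested.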

How the results depend on the processing

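The count of 0 members past the adjusted threshold in limma held in every alternative run: both other scalings, both other floors, no filter and a filter at the 60th percentile, a variance prior without a trend, the log2 of the hour, and each array left out. The lowest adjusted p of a member over these was 0.278. Over all probe sets the count of 1 became 0 with no filter and 0 with a constant variance prior, and ran from 0 to 1 with an array left out (0 without the 4 h or the 6 h array). The count of 0 members at least 2-fold from the other arrays became 2 with no filter and ran from 0 to 1 with an array left out; the 1 was the brighter Nes probe set, high at 4 h without the 1 h array and low at 6 h without the 2 h array. Of 106 alternative slopes of the members, 99 kept their sign and 7 turned. The other floors, filters and variance prior left each slope at its main value, so no sign could turn there. All 7 turns came with another scaling or with an array left out. The dimmer tested Sox4 probe set turned to 0.018 with equal medians and 0.010 with quantile normalization. With an array left out, slopes ran from -0.129 to 0.0264 for that probe set, -0.0240 to 0.0572 for the brighter Sox4 one, -0.0806 to 0.0282 for Sox2 and -0.159 to 0.205 for Nes. No paired analysis was possible because each hour has 1 array and all arrays belong to 1 group. Dim probe sets such as Dpysl3 lie near the floor, and no detection calls were used.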

Other observations

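A few signals of the neurogenic niche were low in the 1 h array, whose Gapdh ratio was 4.88. The part of that ratio in the values was not tested. Of the 28 tested niche probe sets, 2 were at least 2-fold low at 1 h and 1 was at least 2-fold high. At any hour 5 were 2-fold apart (17.9%), beside 11.5% of all tested probe sets. The summed intensity of the 28 was highest at 1 h (22931, then 20755, 21671 and 20683). Shh, a morphogen that keeps stem cells dividing, read 34.2 at 1 h and 175, 197 and 167 at 2, 4 and 6 h, and Dkk3, a secreted protein of the dickkopf family, 899 against 2144, 1786 and 1578. Hes5, a Notch target of neural stem cells, is from the stem cell list and not a niche signal. It read 51.9 at 1 h and 183, 187 and 151 later. A second probe set, too dim for the test, read 45.3, 82.1, 13.4 and 19.6. Bmpr2, a receptor for bone morphogenetic proteins, was high at 2 h instead (340 against 132, 118 and 176), and Cxcl12, a chemokine of the niche, high at 1 h on 1 of its tested probe sets (205.5 against 56.4, 123 and 80.5). The other probe sets of Cxcl12 differed less, at 313, 276, 209 and 287 and at 359.8, 305, 256 and 210.1. These genes were picked for their values, and the differences have no replicate check.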
